A study of Homo sapiens with 12 samples.

Results

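The peroxisome proliferator-activated receptors (PPARs) and lipid genes that the liver commonly uses during fasting were followed through TPN exposure of human liver spheroid co-cultures. The group was set by gene name, with earlier results of these data known, and holds 9 of the 16705 genes of the table. They are the receptors PPARA, PPARD and PPARG, the carnitine palmitoyltransferases CPT1A and CPT2, and ANGPTL4, PDK4, CREB3L3 and CD36. Of these, 8 reached the mean level of 0.5 FPKM required for testing and PDK4 did not. At 144 h, CPT1A, ANGPTL4, CREB3L3 and CD36 stood 1.68-fold to 2.15-fold higher in exposed than in untreated spheroids, PPARG stood lower, and CPT2 did not pass the test.

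The spheroids were made of C3A cells, a HepG2 derivative of hepatoma origin that keeps many hepatocyte traits, and LX-2 cells, an immortalized line of activated human hepatic stellate cells. There were 4 groups with 3 libraries each, untreated spheroids and spheroids given 1% TPN, each taken after 24 h or 144 h. All 4 groups shared the cell lines and the culture format, and TPN (total parenteral nutrition) was an infusion product for patients, in which a lipid emulsion is combined with glucose, amino acids and electrolytes, plus vitamins and trace elements. Each library came from pooled spheroids of 2 established lines, so the values are those of these clones and not of primary hepatocytes, and the libraries are the replicates of the tests. FPKM is the number of fragments of a gene scaled by its length and by the fragments of the library. In bulk RNA of this kind, fewer cells of a type and less RNA per cell cannot be told apart.

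PPARs are nuclear receptors that bind fatty acids and their derivatives and act on DNA as a pair with a retinoid X receptor. PPARA is best known in hepatocytes, where it drives fatty acid oxidation and ketone body formation in fasting, PPARD is found in most tissues, and PPARG is the receptor of adipocyte differentiation. Fatty acids enter mitochondria as acylcarnitines, made by CPT1A on the outer membrane and turned back into acyl-CoA by CPT2 on the inner one. ANGPTL4 is a secreted inhibitor of lipoprotein lipase, PDK4 a kinase that switches pyruvate dehydrogenase off, CREB3L3 (CREBH) a membrane-bound transcription factor of the liver and CD36 a fatty acid translocase of the cell surface.

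Summed FPKM ran from 561657 to 583722 over the libraries, and the 3 libraries of each group correlated at 0.993 or more on log2(FPKM + 0.1). From the steps of low values in short genes, 1 depth was estimated for all libraries, 1.86e+07 fragments per library. It was chosen for the largest share of values within 0.15 of a whole number of fragments, 90.45% of 199. That share is thus no check of the estimate. At that depth the members other than PDK4 rested on an estimated 35 fragments (ANGPTL4, untreated 24 h) to 2861 fragments (CPT1A, TPN 144 h) per library. Hepatocyte markers summed to 8201 to 11686 FPKM in a library and only CYP7A1 of the 8 was below 0.5 FPKM in each group. Of 10 stellate cell markers, DES, LUM, LRAT and RGS5 were below 0.5 FPKM in each group. COL1A2 and THY1 were below it too at 144 h, and COL3A1 in exposed spheroids at 144 h. The stellate cell label thus rested on the other markers of the list.

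The sequence before the transcription start is shown for the 3 members with a single listed start that were called differentially expressed genes (DEGs) at 144 h, as defined below, so that the letters can be read beside their values. Each is the 250 bases before the RefSeq start in GRCh38.p14, written 5′ to 3′ on the strand of the gene, and capitals mark motif matches. The windows are chr19:4153381-4153630 on the plus strand for CREB3L3, chr19:8363905-8364154 on the plus strand for ANGPTL4 and chr11:68844278-68844527 on the minus strand for CPT1A. For CPT1A the deposited table lists the opposite strand, and for ANGPTL4 it places the start of the gene before the RefSeq window.
CREB3L3: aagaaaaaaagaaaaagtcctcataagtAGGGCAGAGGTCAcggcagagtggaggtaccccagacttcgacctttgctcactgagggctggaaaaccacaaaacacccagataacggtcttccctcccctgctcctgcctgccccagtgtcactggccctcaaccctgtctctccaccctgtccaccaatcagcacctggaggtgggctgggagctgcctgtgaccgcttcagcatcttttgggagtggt
ANGPTL4: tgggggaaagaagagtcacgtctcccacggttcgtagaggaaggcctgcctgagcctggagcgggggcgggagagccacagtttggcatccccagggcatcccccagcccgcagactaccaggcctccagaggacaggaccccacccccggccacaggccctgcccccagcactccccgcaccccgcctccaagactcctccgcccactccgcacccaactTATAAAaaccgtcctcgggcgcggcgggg
CPT1A: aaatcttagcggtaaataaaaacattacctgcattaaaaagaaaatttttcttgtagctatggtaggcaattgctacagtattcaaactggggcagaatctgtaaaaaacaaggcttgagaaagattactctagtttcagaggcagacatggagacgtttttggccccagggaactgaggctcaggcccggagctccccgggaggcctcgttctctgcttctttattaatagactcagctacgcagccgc
All 9 members matched the RefSeq table, with 20 starts in all, and 4 motifs were searched on both strands. A direct repeat of the PPAR hexamer, searched as AGGNCA followed after 1 free base by AGGNCA, was present in 0.268% of the 35116 windows of all genes and in CREB3L3, where it ran from -222 to -210 and overlapped the hexamer AGGTCA at -215 to -210. The hexamer itself was present in 12.1% of all windows, and PPARG held it before 3 of its 6 listed starts. The windows of 2 of these starts overlap and hold the same hexamer site. TATAAA was present in 10.7% of all windows and in ANGPTL4 at -29 to -24. Before 2 PPARG starts, those of the overlapping windows, it lay on the opposite strand and was the same site. CD36 held it before 2 starts, at -211 to -206 on the opposite strand and at -216 to -211 on the strand of the gene. TGACG, the core of a cyclic AMP response element, was present in 21.2% of all windows, in PPARD at -32 to -28 and on the opposite strand in PDK4 at -226 to -222. None of the 4 motifs matched in the windows of PPARA, CPT1A or CPT2, which says only that these letters were not in these windows.

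**Figure D1:**
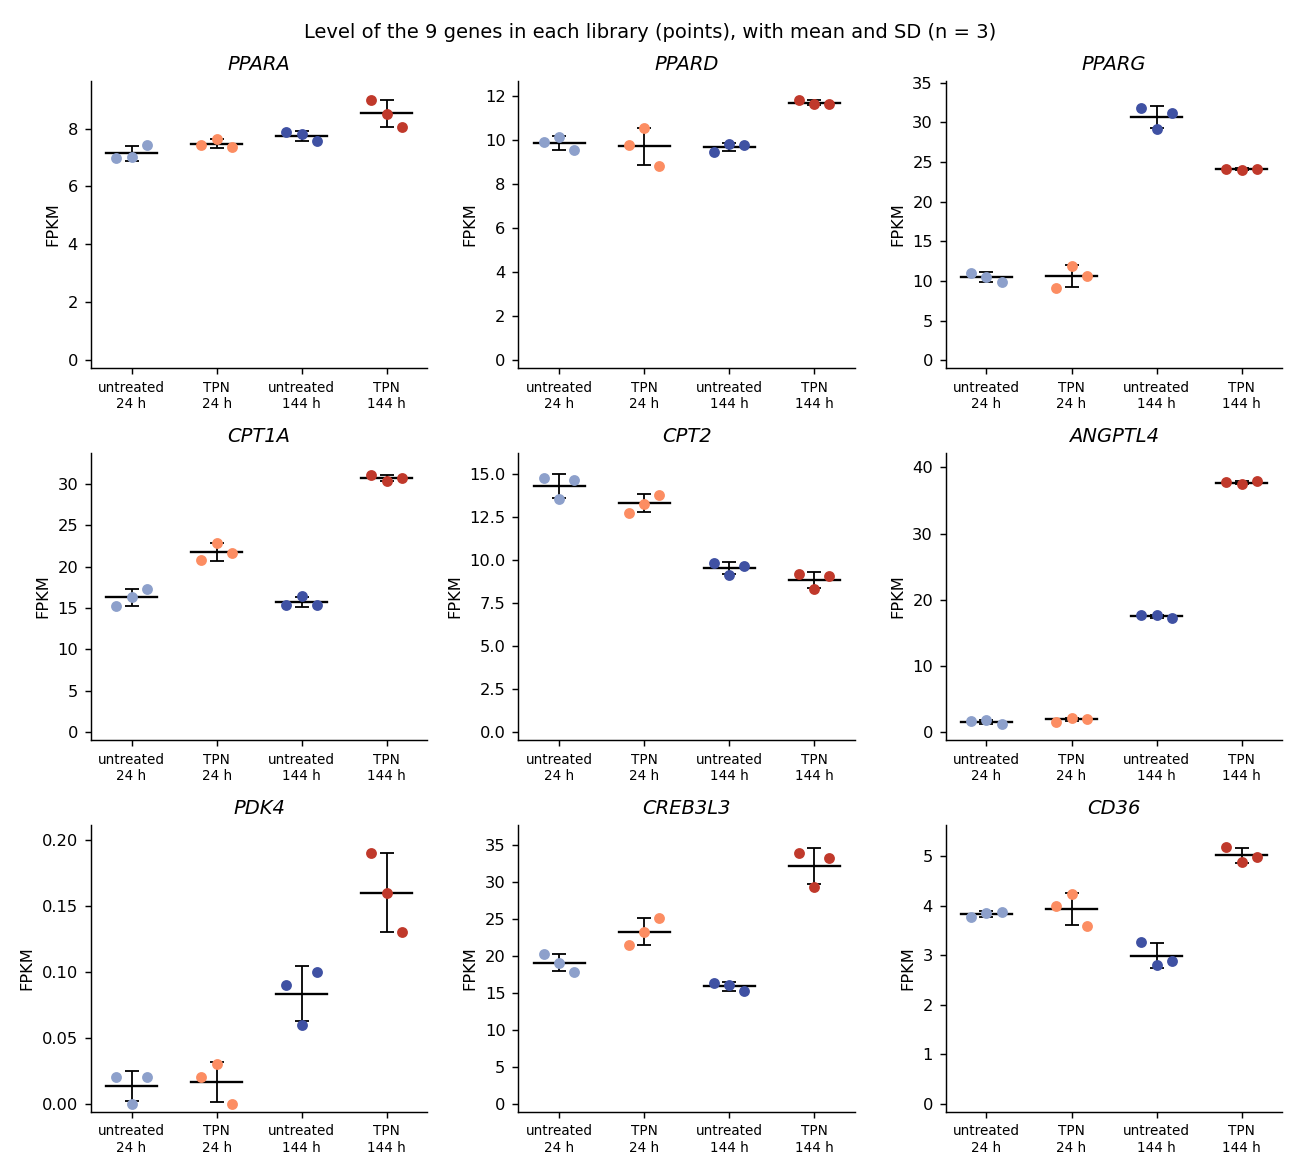
FPKM of the 9 genes (vertical axes, 1 panel per gene, each with its own scale from 0) in the 4 groups, with 1 point per library, a horizontal line at the mean and bars for the SD of 3 libraries. CPT1A, CREB3L3 and CD36 are highest in the TPN 144 h libraries, ANGPTL4 is low at 24 h and high at 144 h, and PPARG is highest in untreated spheroids at 144 h.

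Among the receptors, PPARA (chr22:46010236-46243756) varied little. Untreated spheroids had 6.98, 7.01 and 7.44 FPKM at 24 h and 7.87, 7.82 and 7.56 FPKM at 144 h. Exposed spheroids had 7.42, 7.65 and 7.35 FPKM at 24 h and 8.99, 8.50 and 8.07 FPKM at 144 h. The groups overlapped at 24 h and did not at 144 h, when the 3 exposed libraries lay above the 3 untreated ones by a small margin. The log2 fold change of TPN against untreated was 0.06 (SE 0.0509, adjusted p = 0.491) at 24 h and 0.13 (SE 0.0509, adjusted p = 0.0406) at 144 h in the limma model. The call at 144 h depended on the libraries. The adjusted p was 0.0508 without TPN 24 h replicate 1, 0.0577, 0.0667 and 0.117 without untreated 144 h replicates 1, 2 and 3, and 0.168 and 0.0788 without TPN 144 h replicates 1 and 2. In order of the mean, untreated 24 h, TPN 24 h and untreated 144 h overlapped with their neighbours, and TPN 144 h stood above them.

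PPARD (chr6:35342558-35428180) was at one level in 3 groups and higher in the fourth. Its values were 9.93, 10.2 and 9.54 FPKM in untreated and 9.76, 10.5 and 8.84 FPKM in exposed spheroids at 24 h. At 144 h they were 9.47, 9.83 and 9.78 FPKM in untreated and 11.8, 11.6 and 11.6 FPKM in exposed spheroids. All 3 exposed libraries at 144 h were above the other 9 libraries, and the other 3 groups overlapped. PPARD rose at 144 h, with a log2 fold change of 0.27 (SE 0.0561, adjusted p = 0.00123), and the value at 24 h was -0.03 (SE 0.0561, adjusted p = 0.833).

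PPARG (chr3:12287368-12438733) was the receptor that moved most, and it moved with time. At 24 h it was at 11.1, 10.4 and 9.90 FPKM in untreated and 9.12, 11.9 and 10.7 FPKM in exposed spheroids, which overlapped. At 144 h it was at 31.8, 29.1 and 31.1 FPKM in untreated and 24.2, 24.0 and 24.1 FPKM in exposed spheroids. All 6 libraries at 144 h were above all 6 at 24 h, and at 144 h the exposed libraries lay below the untreated ones without overlap. The log2 fold change of TPN against untreated was 0.01 (SE 0.0753, adjusted p = 0.968) at 24 h and -0.35 (SE 0.0753, adjusted p = 0.00156) at 144 h, when exposed spheroids had 0.785 times the untreated level. At 24 h the FPKM of PPARG overlapped that of PPARD in untreated spheroids, and at 144 h PPARG was the most abundant of the 3 receptors in both conditions, with a mean of 30.7 ± 1.39 FPKM (SD, n = 3) in untreated spheroids against 9.69 ± 0.195 FPKM for PPARD and 7.75 ± 0.166 FPKM for PPARA.

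CPT1A (chr11:68754620-68844410), the rate-limiting step of mitochondrial fatty acid oxidation, rose at both times. Untreated spheroids had 15.2, 16.4 and 17.3 FPKM at 24 h and 15.4, 16.4 and 15.4 FPKM at 144 h, which overlapped. Exposed spheroids had 20.7, 22.9 and 21.6 FPKM at 24 h and 31.0, 30.4 and 30.7 FPKM at 144 h. The groups were separate at each time, and the exposed libraries at 144 h were above those at 24 h. The exposed mean was 1.34 times the untreated mean at 24 h (log2 fold change 0.42, SE 0.0495, adjusted p = 0.0001) and 1.95 times at 144 h (0.96, SE 0.0495, adjusted p = 3.40e-09).

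CPT2 (chr1:53196824-53214197), the inner-membrane partner of CPT1A, did not share that pattern. It was at 14.8, 13.5 and 14.7 FPKM in untreated and 12.8, 13.3 and 13.8 FPKM in exposed spheroids at 24 h. At 144 h the values were 9.83, 9.16 and 9.67 FPKM and 9.19, 8.30 and 9.05 FPKM. The groups overlapped at each time, and both were lower at 144 h than at 24 h. The log2 fold change was -0.11 at 24 h (95% confidence interval -0.23 to 0.01, adjusted p = 0.237) and -0.11 at 144 h (-0.23 to 0.01, adjusted p = 0.101), so a rise of the size seen for CPT1A lay outside both intervals. Without single libraries the value for CPT2 at 144 h ranged from -0.14 to -0.066, the latter without TPN 144 h replicate 2.

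ANGPTL4 (chr19:8363033-8374373) had the widest range of the genes tested. At 24 h it was at 1.72, 1.77 and 1.18 FPKM in untreated and 1.59, 2.13 and 2.02 FPKM in exposed spheroids, which overlapped. At 144 h it was at 17.6, 17.7 and 17.2 FPKM in untreated and 37.7, 37.4 and 38.0 FPKM in exposed spheroids. The libraries at 144 h were all above those at 24 h, and those of exposed spheroids were above those of untreated ones. The log2 fold change of TPN against untreated was 1.10 (SE 0.125, adjusted p = 6.72e-06) at 144 h, 2.15-fold by the means, and 0.29 (SE 0.125, adjusted p = 0.171) at 24 h, where the estimated 35 to 63.2 fragments per library limit the precision. Without single libraries the log2 fold change of ANGPTL4 at 24 h ranged from 0.12, without untreated 24 h replicate 3, to 0.41, and it passed in none of these fits.

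CREB3L3 (chr19:4153631-4173054) rose at both times. It was at 20.3, 19.0 and 17.9 FPKM in untreated and 21.5, 23.2 and 25.1 FPKM in exposed spheroids at 24 h. At 144 h the values were 16.4, 16.04 and 15.2 FPKM and 33.9, 29.4 and 33.3 FPKM. The groups did not overlap at either time. At 24 h the exposed mean was 1.22 times the untreated one (log2 fold change 0.29, SE 0.0669, adjusted p = 0.0143), and this call was lost without untreated 24 h replicate 3 (adjusted p = 0.066) or TPN 24 h replicate 3 (adjusted p = 0.0661). At 144 h the exposed mean was 2.03 times the untreated one (log2 fold change 1.01, SE 0.0669, adjusted p = 3.73e-08). In order of the mean, untreated 144 h, untreated 24 h, TPN 24 h and TPN 144 h followed each other without overlap.

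CD36 (chr7:80602150-80679277) differed between exposed and untreated spheroids at 144 h. At 24 h it was at 3.77, 3.86 and 3.88 FPKM in untreated and 4.0, 4.24 and 3.59 FPKM in exposed spheroids, which overlapped. At 144 h it was at 3.28, 2.81 and 2.89 FPKM in untreated and 5.20, 4.89 and 4.98 FPKM in exposed spheroids. Untreated spheroids at 144 h were the lowest group and exposed ones at 144 h the highest, without overlap with the 24 h groups. The exposed mean at 144 h was 1.68 times the untreated one (log2 fold change 0.73, SE 0.0756, adjusted p = 2.80e-06), and the log2 fold change at 24 h was 0.04 (SE 0.0756, adjusted p = 0.837).

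PDK4 (chr7:95583499-95596516) was close to the limit of detection. It was listed at 0.02, 0 and 0.02 FPKM in untreated and 0.02, 0.03 and 0 FPKM in exposed spheroids at 24 h. At 144 h it was at 0.09, 0.06 and 0.10 FPKM in untreated and 0.19, 0.16 and 0.13 FPKM in exposed spheroids, an estimated 3.71 to 6.18 and 8.03 to 11.7 fragments per library. The groups overlapped at 24 h and not at 144 h. With every gene of the table in the model, the log2 fold change at 144 h was 0.50 (SE 0.138, adjusted p = 0.014), a value that the pseudocount of 0.1 holds down at this level. PDK4 was thus the lowest of the 9 genes in every group, and the related kinases PDK1, PDK2 and PDK3, looked up after the values of PDK4 were seen, had untreated means of 31.7 ± 0.727, 8.82 ± 0.215 and 3.33 ± 0.336 FPKM (SD, n = 3) at 144 h. None of these 3 passed the test of TPN against untreated at either time.

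**Figure D2:**
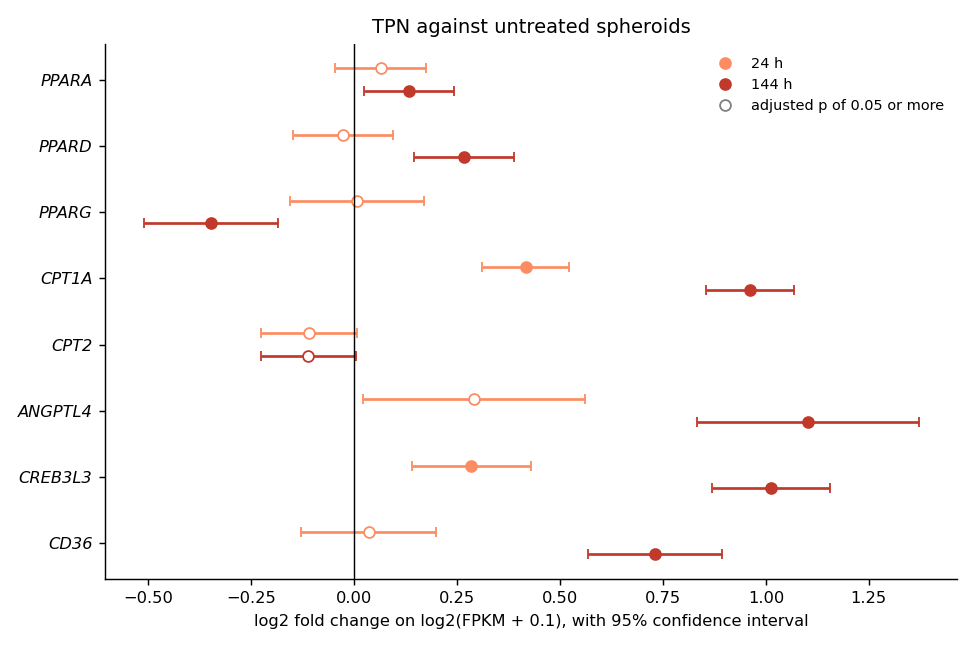
Log2 fold change of TPN against untreated spheroids for the 8 genes tested (horizontal axis, on log2(FPKM + 0.1)) at 24 h and 144 h, with 95% confidence intervals of the limma model and open points where the adjusted p was 0.05 or more. CPT1A and CREB3L3 have filled points at both times, ANGPTL4 and CD36 at 144 h, and PPARG is to the left of 0 at 144 h.

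At 24 h of exposure, 2 of the 8 genes tested passed at an adjusted p below 0.05, CPT1A and CREB3L3, both higher, beside 10.5% of all 11713 genes tested and 5.04% for higher calls alone. The groups did not overlap for the same 2 genes, beside 29.9% of all genes. None was a DEG, which requires in addition an absolute log2 fold change above 0.58, beside 0.914% of all genes by limma, and 3 of the 8 had an unadjusted p below 0.05, beside 23.9% of all genes. At 144 h of exposure, 7 of 8 passed beside 52.5% of all genes, 6 of them higher (24.2% of all genes) and PPARG lower (28.3%). The 4 DEGs, CPT1A, ANGPTL4, CREB3L3 and CD36, were all higher. DEGs made up 9.48% of all genes tested, and higher DEGs 5.75%. The groups did not overlap for 7 of the 8 at 144 h, beside 57.3% of all genes. The members were chosen with earlier results of these data known, so these counts describe them and are no test of the group. With 3 against 3 libraries an exact permutation test has 20 arrangements and no two-sided p below 0.1. That value needs groups that do not overlap, so the 2 genes at 24 h and the 7 at 144 h just counted reached it, and their shares are to be read against the same 29.9% and 57.3% of all genes. PDK4, which was not tested across genes, also reached it at 144 h.

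The change of the TPN effect between the times was tested as the effect at 144 h minus the effect at 24 h. It passed for 6 of 8 members, beside 30.4% of all genes tested. The difference was 0.81 for ANGPTL4 (SE 0.177, adjusted p = 0.00376), 0.73 for CREB3L3 (SE 0.0946, adjusted p = 8.96e-05) and 0.70 for CD36 (SE 0.107, adjusted p = 3.19e-04), all on the log2 scale, and these 3 also passed the fold threshold, beside 5.87% of all genes. CPT1A differed by 0.54 (SE 0.0699, adjusted p = 7.98e-05) and PPARD by 0.29 (SE 0.0793, adjusted p = 0.013). PPARG differed in the other direction, by -0.36 (SE 0.106, adjusted p = 0.0224), and its adjusted p was 0.0537 without untreated 24 h replicate 3 and 0.0512 without untreated 144 h replicate 1. PPARA (0.07, 95% confidence interval -0.09 to 0.22, adjusted p = 0.504, and 0.03 to 0.11 without single libraries) and CPT2 (-0.0008, -0.16 to 0.16, adjusted p = 0.995) did not pass.

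**Figure D3:**
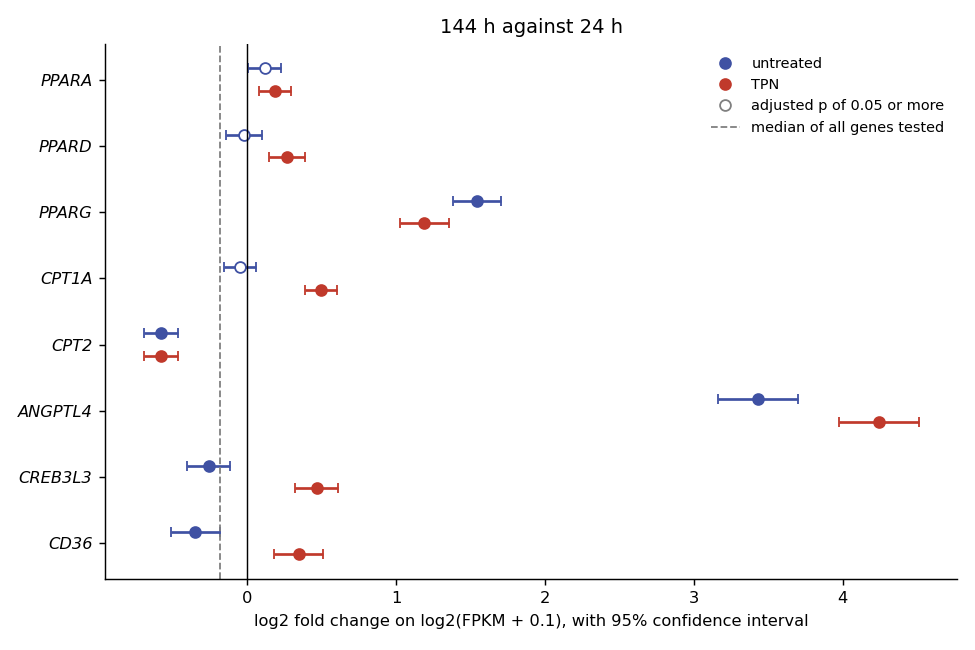
Log2 fold change of 144 h against 24 h for the 8 genes tested (horizontal axis, on log2(FPKM + 0.1)) in untreated and in TPN-exposed spheroids, with 95% confidence intervals and a dashed line at -0.18, the median of all genes tested in untreated spheroids. ANGPTL4 and PPARG lie far to the right in both conditions, CPT2 to the left in both, and CREB3L3 and CD36 to the left when untreated and to the right under TPN.

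Culture time without TPN changed the members in another order. From 24 h to 144 h, untreated spheroids had 11.3 times as much ANGPTL4 (log2 fold change 3.43, SE 0.125, adjusted p = 4.21e-11) and 2.93 times as much PPARG (1.54, SE 0.0753, adjusted p = 6.73e-10). CPT2 fell to 0.667 times its level at 24 h (log2 fold change -0.58, SE 0.0538, adjusted p = 3.64e-07). These 2 rises and the fall of CPT2 kept their direction and passed under each of 3 other scalings. The median of all genes tested fell by 0.18 on the log2 scale, and relative to it ANGPTL4 changed by 3.62, PPARG by 1.73 and CPT2 by -0.40.

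The smaller changes with time depended on the scaling. CD36 had a log2 fold change of -0.35 (adjusted p = 8.45e-04) and CREB3L3 of -0.26 (adjusted p = 0.00306) in untreated spheroids, and with median-ratio scaling these became -0.18 (adjusted p = 0.0514) and -0.08 (adjusted p = 0.277). PPARA (0.12), CPT1A (-0.05) and PPARD (-0.03) did not pass, and with median-ratio scaling all 3 passed as higher, at 0.29, 0.13 and 0.15. In the values as deposited 27.8% of the genes called over time in untreated spheroids were higher, against 49.6% with median-ratio scaling, and in exposed spheroids 31.7% against 49.6%. In all, 5 of 8 members passed in untreated spheroids beside 72.6% of all genes tested, and 2 were DEGs beside 19.0%.

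In exposed spheroids all 8 members passed over time, beside 76.2% of all genes tested, and 3 were DEGs, beside 26.7%. ANGPTL4 was 19.7 times (log2 fold change 4.24) and PPARG 2.28 times (1.19) the level at 24 h, and CPT2 was 0.666 times (-0.58). CPT1A (0.50), CREB3L3 (0.47), CD36 (0.34), PPARD (0.27) and PPARA (0.19) were higher at 144 h, and they also passed as higher with median-ratio scaling. These comparisons share their libraries with those of TPN against untreated and are not separate evidence. In the values as deposited, CREB3L3 and CD36 thus fell over time in untreated spheroids and rose over time under TPN, and the test of that difference is the one given above.

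Markers of the cell types moved with time and TPN, and their part in the results above was not tested. Stellate cell markers summed to 81.3 to 83.7 FPKM in untreated and 70.1 to 72.5 FPKM in exposed libraries at 24 h. At 144 h they summed to 51.8 to 56.2 and 47.5 to 50.1 FPKM, and 4 of 6 tested fell with TPN. From 24 h to 144 h, 4 of these 6 were lower DEGs in each condition. Their median log2 fold change over time was -2.20 in untreated and -2.89 in exposed spheroids, beside -0.18 for all genes tested. At 144 h 6 of the 10 listed were below 0.5 FPKM in untreated and 7 in exposed spheroids. Hepatocyte markers summed to 9371 to 9717 and 8465 to 8570 FPKM at 24 h and to 10846 to 11686 and 8201 to 8722 FPKM at 144 h, and 6 of 7 tested fell with TPN at 144 h. Both sums were lower in exposed than in untreated libraries at each time, without overlap. For PPARG, ANGPTL4 and CD36, which adipocytes, macrophages or endothelial cells also express, the markers of these types were listed too. The adipocyte markers ADIPOQ, PLIN1 and LPL were below 0.5 FPKM in each group, and the sum of the 4 of 6 in the table, carried by CIDEC, was 16.8 to 20.2 and 24.9 to 28.9 FPKM at 24 h and 10.1 to 11.2 and 26.4 to 27.8 FPKM at 144 h. The macrophage markers MARCO, CSF1R, ADGRE1 and PTPRC were below 0.5 FPKM in each group, and the sum of the 6 of 7 in the table was 47.3 to 49.0 and 51.8 to 56.2 FPKM at 24 h and 49.0 to 49.5 and 63.2 to 66.2 FPKM at 144 h. Adipocyte and macrophage sums were higher in exposed than in untreated libraries at each time, without overlap. Only 1 adipocyte marker, CIDEC, and 2 macrophage markers reached the level for testing. CIDEC and 1 of the 2 macrophage markers rose with TPN at each time, so these sums rest on few genes. All 6 endothelial markers were below 0.5 FPKM in each group and summed to at most 1.07 FPKM.

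Partners and coregulators of the receptors were counted from a list of 16 genes, of which 14 were tested. With TPN at 144 h 4 rose and 4 fell, beside 24.2% higher and 28.3% lower among all genes tested, so the counts are near the background and say nothing particular about the list. It had a median log2 fold change of 0.03 beside -0.02 for all genes tested, and none passed at 24 h. The coactivator NCOA3 rose from 9.02 to 12.2 FPKM (log2 fold change 0.43) and LPIN1, a coactivator of PPARA, rose by 0.21 on the same scale. NCOA2 (-0.45) and the corepressor NRIP1 (-0.37) fell. The retinoid X receptors RXRA and RXRB, named outside the rule for their role, had log2 fold changes of 0.03 (adjusted p = 0.606) and -0.03 (adjusted p = 0.582), with RXRA between 16.5 and 18.9 FPKM in all 12 libraries. PPARGC1A, the coactivator most tied to fasting and named on the same ground, was at 9.37 FPKM in untreated and 9.61 FPKM in exposed spheroids at 144 h (adjusted p = 0.668).

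KEGG PPAR signaling lists 69 genes in the table, 7 of them members, and PDK4 and CREB3L3 are not on it. Of the other 62, 44 were tested. With TPN at 24 h 4 rose and 4 fell, and at 144 h 12 rose and 16 fell, beside 24.2% higher and 28.3% lower among all genes tested. The median log2 fold change at 144 h was 0.0044, and it was below 0 when libraries were scaled to one sum (-0.0099) or quantile normalized (-0.01). The lipid droplet coat genes PLIN4 (1.07) and PLIN2 (0.76), the acyl-CoA synthetase ACSL5 (0.94) and PCK1 (0.96), a gluconeogenic enzyme, had the largest changes at 144 h among those that passed, and all 4 rose.

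**Figure D4:**
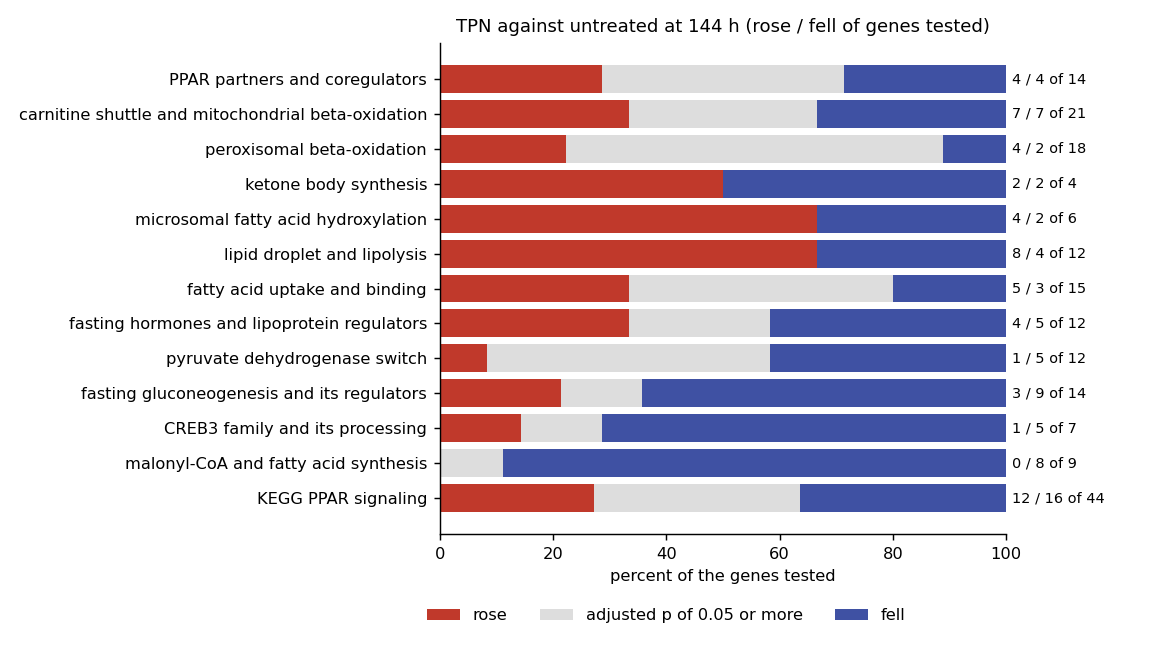
Percent of the genes tested in each list (horizontal axis) that rose, fell or had an adjusted p of 0.05 or more with TPN at 144 h, with the counts at the right. Lipid droplet and microsomal hydroxylation genes have the longest bars of genes that rose, and fatty acid synthesis genes have none that rose and 8 of 9 that fell.

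The lists of fatty acid breakdown and those that follow are read beside the shares of all genes tested, 24.2% higher and 28.3% lower at 144 h and 5.04% higher and 5.46% lower at 24 h, and a count near these shares says nothing about a list. Of 21 tested genes of the carnitine shuttle and mitochondrial beta-oxidation, 7 rose and 7 fell at 144 h, with a median log2 fold change of 0.05 that became -0.03 with quantile normalization. ETFDH (0.55), which passes electrons from acyl-CoA dehydrogenation to ubiquinone, rose, and the dehydrogenases HADH (-0.64) and ACADSB (-0.43) and the dienoyl-CoA reductase DECR1 (-0.45) fell. At 24 h none rose and 3 fell. Of 18 tested peroxisomal genes, 4 rose and 2 fell at 144 h (median 0.05) and none passed at 24 h. Catalase, CAT (0.34), and the acyl-CoA oxidase ACOX2 (0.19) rose, and EHHADH (-0.32), a bifunctional enzyme of the peroxisome, fell. Of the 4 tested ketone body genes, 2 rose and 2 fell at 144 h (median -0.04) and none passed at 24 h. The hydroxybutyrate dehydrogenase gene BDH1 (0.35) rose, and BDH2 (-0.31) and ACAT1 (-0.20) fell.

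The lists with most genes higher concerned lipid storage and omega-hydroxylation. Of 12 tested lipid droplet and lipolysis genes, 8 rose and 4 fell at 144 h, with a median of 0.41, and 2 rose and 2 fell at 24 h. CIDEC, which promotes droplet fusion, rose from 10.3 to 27.0 FPKM (1.38), PLIN4 and PLIN2 rose as above, and CIDEB fell from 23.8 to 13.1 FPKM (-0.85). Of 6 tested genes of microsomal fatty acid hydroxylation, 4 rose and 2 fell (median 0.42), among them CYP4F11 (0.89), POR (0.43) and CYP4F3 (0.42), which rose, and CYP4F12 (-0.74), which fell, and 3 rose at 24 h. The CYP4F genes are close paralogs, so the split of fragments among them is uncertain. Of 15 tested genes of fatty acid uptake and binding, 5 rose and 3 fell (median 0.01, and -0.01 when libraries were scaled to one sum), and 1 rose at 24 h. FABP1, the liver fatty acid binding protein, rose from 1562 to 2338 FPKM (0.58), VLDLR, a lipoprotein receptor, rose by 0.68 and ACSL5 by 0.94, and the transporter SLC27A3 (-0.55) fell.

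The list of fasting hormones and lipoprotein regulators, which also holds receptors, had 12 genes tested. At 144 h 4 rose and 5 fell (median -0.02), and at 24 h 4 rose and 1 fell. ANGPTL8, which acts with other angiopoietin-like proteins on lipoprotein lipase, rose from 126 to 207 FPKM at 24 h (0.71) and from 263 to 589 FPKM at 144 h (1.16). The apolipoprotein gene APOA4 (1.19) and the stress hormone gene GDF15 (0.68) rose at 144 h, and FGFR4 (-0.47), a receptor of the bile acid hormone FGF19, fell. Of 12 tested genes around pyruvate dehydrogenase, 1 rose and 5 fell at 144 h (median -0.09), and no gene rose when libraries were scaled to one sum. The mitochondrial pyruvate carrier subunits MPC1 (-0.74) and MPC2 (-0.33) and the complex subunits DLAT (-0.25) and PDHA1 (-0.18) fell, and 1 gene fell at 24 h.

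The list of fasting gluconeogenesis and its regulators holds more regulators than enzymes. Of 14 tested, 9 fell and 3 rose at 144 h (median -0.32), and 3 fell and 1 rose at 24 h. All 3 that rose at 144 h were DEGs, against 3 of the 9 that fell. KLF15 (-1.35), FOXO1 (-0.84) and CEBPA (-0.77), transcription factors of the fasted liver, fell, while the enzyme gene PCK1 rose from 10.5 to 20.6 FPKM. The fall of KLF15 was at a low level, from 0.957 to 0.317 FPKM. Of the 7 genes of the CREB3 family and its processing, 5 fell and 1 rose at 144 h (median -0.25) and 1 fell at 24 h. The relatives CREB3 (-0.25) and CREB3L4 (-0.56) and the protease gene MBTPS2 (-0.30), whose product releases such factors from the membrane, fell where CREB3L3 rose. CREB3L1 fell too (-0.61), from 0.13 to 0.05 FPKM, levels that rest on few fragments. Of 9 tested genes of malonyl-CoA and fatty acid synthesis, 8 fell and none rose at 144 h (median -0.30), and 1 fell at 24 h. ACACA (-0.43), an acetyl-CoA carboxylase, SREBF1 (-0.42), PNPLA3 (-0.39) and MLXIPL (-0.39) fell. The remaining gene tested, ACACB, the acetyl-CoA carboxylase of the mitochondrial surface, had a log2 fold change of -0.05 (adjusted p = 0.506). The 12 lists and the KEGG list share genes, so their counts are not independent, and no test of a list as a whole was made.

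**Figure D5:**
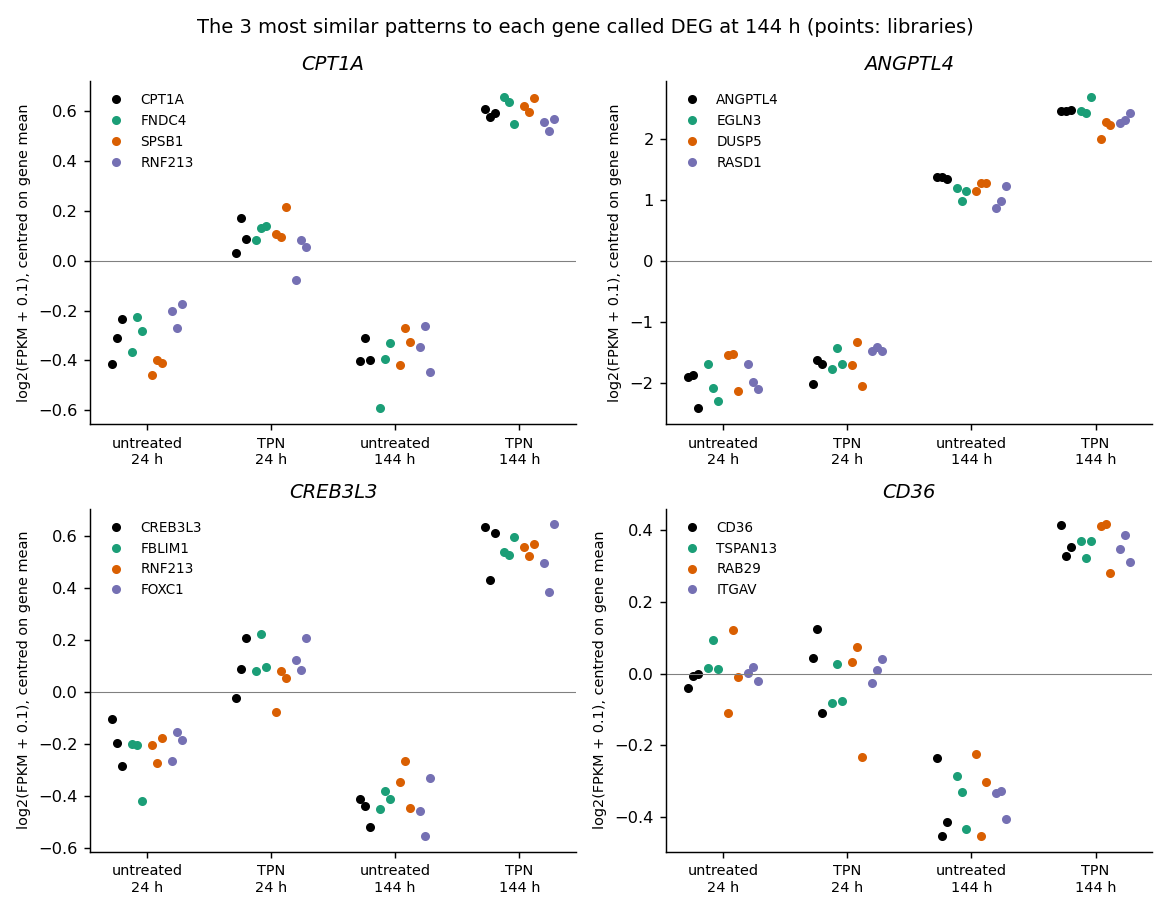
Log2(FPKM + 0.1) centred on the mean of each gene (vertical axis) in the 4 groups, with 1 point per library, for each of the 4 members called DEGs at 144 h (black) and the 3 genes with the most similar pattern. The points of the member and of the similar genes lie close together in each group.

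The genes most like each DEG were found by the root-mean-square difference of the centred log2 values over the 12 libraries, a description with no test. CPT1A was closest to FNDC4 (0.0795), SPSB1 (0.0811) and RNF213 (0.0840). FNDC4, for example, was at 10.1 and 13.4 FPKM at 24 h and 9.13 and 19.0 FPKM at 144 h in untreated and exposed spheroids. CREB3L3 was closest to FBLIM1 (0.0928), RNF213 (0.0958) and FOXC1 (0.104), so RNF213, a large E3 ubiquitin ligase, was near both. CD36 was closest to TSPAN13 (0.0704), RAB29 (0.0739) and ITGAV (0.0805), an integrin subunit. ANGPTL4, with its wide range, had more distant neighbours, EGLN3 (0.201), a prolyl hydroxylase, DUSP5 (0.290), a phosphatase, and RASD1 (0.291). EGLN3 was at 1.91 and 2.50 FPKM at 24 h and 17.3 and 46.4 FPKM at 144 h. All 12 points of each gene come from the same libraries, and libraries of one group lie near each other for many genes.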

How the data were processed

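RNA of 12 libraries was sequenced on the DNBSEQ platform. According to the study's methods, the authors filtered the reads with SOAPnuke, aligned them with HISAT2 and Bowtie2 and calculated gene levels with RSEM. The submitters' processing notes give HISAT2 2.0.4, Bowtie2 2.2.5 and GRCh38.p13. The analysed values are the deposited FPKM with 2 decimals, and each of the 12 value columns was mapped to a sample. They are scaled for gene length and library total, so no count test was used, and a change in total RNA cannot be seen. The table holds 16705 genes, and 20 lines with spilled annotation text and no values were left out. Libraries were grouped by treatment and time from the sample labels. The study describes independent experiments, but the labels do not tie libraries to cultures, so p values measure the spread between these libraries.

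The test covered the 11713 genes that averaged 0.5 FPKM or more. A limma 3.58.1 model (R 4.3.3) of log2(FPKM + 0.1) was fitted, with 4 group means, eBayes with intensity trend and Benjamini-Hochberg adjustment over all genes tested. Fold changes on this scale understate changes of low genes. Rose and fell refer to an adjusted p below 0.05, and DEGs also had an absolute log2 fold change above 0.58. The procedure was tested on simulated data. Depth was estimated with GENCODE v44 transcript lengths, since the lengths used upstream are not given in the sources used here. The members and lists were chosen with earlier results of these data known, so no list gets a test. Beside the members, the rule named up to 4 genes of each list with the largest change at 144 h and the 3 most similar patterns to each DEG. RXRA, RXRB, PPARGC1A, PDK1, PDK2, PDK3, FGF21 and ACACB were named outside it, after their values were seen. Some genes that meet the rule are not reported here. As alternatives, pseudocounts of 1 and 0.01, no filter or one at 5 FPKM, and 3 other scalings were tried, as were changes to the libraries in the model, the trend and the replicate block, and each library was left out in turn. Tables were handled and plotted in Python 3.11.15 (pandas 2.3.3, numpy 2.4.6, matplotlib 3.10.9, scipy 1.17.1).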

Additional observations from a re-analysis of the deposited data

Results flagged for a closer look

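For 6 members the TPN effect at 144 h differed from that at 24 h by the test of the difference itself (limma, adjusted p below 0.05), in log2 units on FPKM + 0.1. The difference was 0.81 for ANGPTL4 (0.29 at 24 h and 1.10 at 144 h), 0.73 for CREB3L3 (0.29 and 1.01), 0.70 for CD36 (0.04 and 0.73) and 0.54 for CPT1A (0.42 and 0.96). It was 0.29 for PPARD (-0.03 and 0.27) and -0.36 for PPARG (0.01 and -0.35). The 2 effects come from spheroids of different age, and no cause was tested. The gap check for a single outlying library was not applied to groups of 3. The values with each library left out in turn are given with the dependence on the processing.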

How the results depend on the processing

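The counts of members that passed or were DEGs stayed within 1.5 times the main count under each alternative, with 1 exception. At 24 h of exposure the count of members that passed was 1 to 2 when single libraries were left out, since CREB3L3 was lost without untreated 24 h replicate 3 or TPN 24 h replicate 3. Of the KEGG PPAR signaling genes, 8 passed at 24 h, 5 with only the groups of the comparison in the model, and 4 to 9 when single libraries were left out. The lowest of these, 4, came without untreated 24 h replicate 1 or 2, and 5 passed without TPN 24 h replicate 1. Signs turned only in values that had not passed. Over time in untreated spheroids, the log2 fold change of PPARD became 0.15 with median-ratio scaling and 0.10 with quantile normalization, and that of CPT1A 0.13 and 0.090. PPARG at 24 h became -0.0019 with libraries scaled to one sum, and the difference of the TPN effects for CPT2 became 0.0024 with a pseudocount of 1 and 0.0052 with quantile normalization. Without single libraries the TPN effect at 24 h ranged from -0.087 to 0.038 for PPARD, from -0.082 to 0.11 for PPARG and from -0.017 to 0.10 for CD36, and the difference for CPT2 from -0.0305 to 0.044. The cause was not tested.

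Deviations of equally numbered libraries correlated between -0.083 and 0.151. Libraries of unequal number were not compared in this way, so whether the replicate number pairs the libraries was not decided. With the number as a replicate block 6 members passed at 144 h in place of 7 (PPARA, adjusted p = 0.0547), 2 passed at 24 h, and no other call of a member changed. PPARA at 144 h was also lost with libraries scaled to one sum (adjusted p = 0.0888) and with only the groups of the comparison (adjusted p = 0.081). Values below about 0.1 FPKM amount to some 3.21 fragments on 2000 bases, which limits PDK4.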

Other observations

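FGF21, the fasting hormone of the liver, was below the level for testing. It was listed at 0 in all 6 libraries at 24 h, at 0.05, 0 and 0 FPKM in untreated and at 0, 0 and 0.15 FPKM in exposed spheroids at 144 h, so no change could be read for it.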
